A study of Mus musculus with 2 samples.

Results

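The Ago2 clusters that lie in introns, 316 of the 6211 clusters called in mouse embryonic stem cells, are described here. They were chosen by the region that the authors' cluster list gives for each cluster, with clusters named as splice junctions left out. No measured value entered this choice among the listed clusters. The list itself holds only clusters with a binomial p under 0.05 for tagged over untagged reads, from the libraries described below. The clusters come from iCLIP, a method that fixes a protein to the RNA it touches, purifies the protein and sequences the RNA fragments left on it. The tagged library came from TT-FHAgo2 cells, whose single Ago family member was human Ago2 carrying FLAG and HA tags. The untagged library came from TT-Ago2 cells, whose single Ago family member was human Ago2 without a tag. In both lines Ago2 depended on doxycycline. Both were clonal, were kept in 0.1 µg/mL doxycycline and were induced at 2.5 µg/mL for 24 h, a dose meant to bring Ago2 to its normal level. Extracts of both went through FLAG and then HA antibodies after partial RNase I digestion, so the untagged library measures what the procedure recovers without a tag.

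Argonaute proteins carry microRNAs, and a microRNA finds its targets mainly by pairing of its seed, bases 2 to 8, with the RNA. Most known sites lie in the 3' UTR of messenger RNA, where binding lowers the stability and translation of the message in the cytoplasm. Introns are copied into the primary transcript and removed by splicing in the nucleus, and some introns hold microRNAs or small nucleolar RNAs that are cut out of them. The cells carried the marks of embryonic stem cells: all 9 markers of that state were listed in the deposited expression values, at 40.3 to 1655 FPKM. Of the markers of fibroblasts 2 of 5 were listed, of primitive endoderm 4 of 8 (none above 0.618 FPKM), of trophectoderm 6 of 8 and of neural and mesodermal cells 6 of 8, with Col1a1, Gata6, Cdx2 and T among those not listed. Some of these markers were well expressed: Vim (fibroblasts) had 45.0 FPKM, Tubb3 (neurons) 40.1 FPKM, Tfap2c and Krt8 (trophectoderm) 13.9 and 9.85 FPKM, against 40.3 FPKM for Klf4, the lowest stem cell marker. Their part in the results was not tested. FPKM is a level scaled to transcript length and library size, and in bulk samples fewer cells of a type and less RNA per cell cannot be told apart.

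Only 3 intronic clusters lay over a 7mer or 8mer seed match in the deposited table of predicted sites, and their sequences are printed because they show which microRNA seeds could pair there. The capitals mark the 7 letters that pair with bases 2 to 8 of a microRNA, or both overlapping matches in Zzef1, and the letters were joined from overlapping entries of the site table (mm9). Sall1 encodes a zinc finger transcription factor of stem cells, Map3k12 a kinase of the JNK pathway, and Zzef1 a zinc finger protein.
Sall1, chr8:91566330-91566338, minus strand: GTTTGAGcc
Map3k12, chr15:102334725-102334732, minus strand: TTTGCACa
Zzef1, chr11:72647471-72647478, plus strand: GGCACTTT

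Mature microRNAs whose seeds match these letters are shown from RefSeq (GRCm38.p6), with the seed in capitals. The Sall1 letters pair with the seed that the 5' arms of miR-290a, miR-292a and miR-293 share, microRNAs of a cluster known for its high level in embryonic stem cells.
mmu-miR-290a-5p: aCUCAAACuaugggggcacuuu
mmu-miR-292a-5p: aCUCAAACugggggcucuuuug
mmu-miR-293-5p: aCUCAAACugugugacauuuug
The Map3k12 letters pair with the seed of miR-19.
mmu-miR-19a-3p: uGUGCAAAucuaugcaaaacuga
mmu-miR-19b-3p: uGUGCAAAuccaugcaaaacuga
The Zzef1 letters hold a match to the seed of the 3' arm of miR-290a and, 1 base further on, a match to the seed of the miR-17 family. The miR-17 family seed in miR-20b-5p, miR-106a-5p, miR-106b-5p and miR-6383 is not printed. Other microRNAs that share the miR-290a-3p seed are not printed either.
mmu-miR-290a-3p: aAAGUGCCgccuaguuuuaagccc
mmu-miR-17-5p: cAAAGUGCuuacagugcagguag
mmu-miR-20a-5p: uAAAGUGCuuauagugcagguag
mmu-miR-93-5p: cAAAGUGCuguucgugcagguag

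Tagged and untagged reads were compared within the listed clusters, which had all passed the authors' threshold of tagged over untagged reads. Signal that failed it is absent, so how much of all intronic signal depended on the tag cannot be told. Introns held 5.09% of the clusters (316 of 6211, exact 95% binomial interval 4.55 to 5.66) and 3.98% of the tagged reads in clusters (2367 of 59410), against 7.33% of the untagged reads (113 of 1541). The untagged number of a cluster was worked back from the enrichment in the authors' list, and how it was scaled is not known. With 1 library per group there was no spread between replicates and no test between the lines. Intervals cover counting error alone, and clusters are not replicates.

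Most intronic clusters had no untagged read: 256 of 316 (81.0%, 76.2 to 85.2), against 3394 of 3806 in 3' UTRs (89.2%, 88.1 to 90.1). That share is partly fixed by the authors' threshold, since a cluster of 5 or 6 tagged reads enters their list only against 0 untagged reads. In larger clusters the threshold still limits the untagged number, by an amount that depends on the tagged reads. Among clusters of at least 7 tagged reads, 80 of 140 intronic ones had none (57.1%, 48.5 to 65.5), against 1786 of 2198 in 3' UTRs (81.3%, 79.6 to 82.9) and 307 of 393 in coding sequence (78.1%, 73.7 to 82.1). In clusters annotated as intergenic it was 81 of 227 (35.7%, 29.5 to 42.3) and in antisense clusters 31 of 94 (33.0%, 23.6 to 43.4). The intronic share lay below that of messenger RNA exons outside 5' UTRs and above that of intergenic and antisense clusters, with intervals that did not overlap. Clusters in 5' UTRs, with 33 of 59 (55.9%, 42.4 to 68.8), were close to the intronic ones. At 10 reads or more, 25 of 55 intronic clusters had no untagged read (45.5%, 32.0 to 59.4), against 72.8% (70.2 to 75.3) in 3' UTRs, 28.8% (20.4 to 38.6) in intergenic and 21.4% (8.30 to 41.0) in antisense clusters. At that depth the intronic interval overlaps those of intergenic and antisense clusters.

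**Figure D1:**
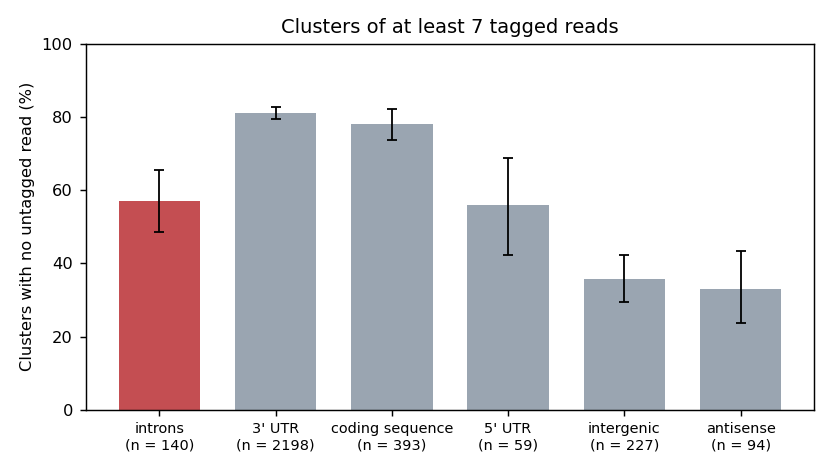
Share of clusters with at least 7 tagged reads that had no untagged read (%, vertical axis), by the authors' region (horizontal axis, n clusters below each name), with exact 95% binomial intervals as error bars. The intronic bar, at 57.1%, stands between coding sequence at 78.1% and intergenic clusters at 35.7%, and close to 5' UTRs at 55.9%.

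The untagged reads were spread unevenly over the intronic clusters. A single untagged read was implied for 36 clusters and 2 for 14, while 4 to 7 were implied for 10 clusters, which together held 174 tagged and 49 untagged reads. The highest untagged number was 7, in St8sia4, which encodes a sialyltransferase that builds polysialic acid. Nfib, Atg13, Gm6121 and the cluster shared by Kti12 and Txndc12 had 5 each.

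Intronic clusters were small. They held 5 to 40 tagged reads, with a median of 6 (quartiles 5 and 8), against a median of 7 in 3' UTRs (5 and 11). At the bottom of the range, 122 (38.6%, 33.2 to 44.2) had 5 reads, against 25.5% (24.1 to 26.9) in 3' UTRs. Another 48 clusters had 10 to 19 reads and 7 had at least 20. The authors' exact binomial test sets the reads of 1 library against those of the other and says nothing of replicates. By it, 95 intronic clusters passed p under 0.01 (30.1%, 25.1 to 35.4), where 49.6% of all clusters did. Under 0.001 there were 33 (10.4%), where 24.4% of all clusters passed.

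Their width was narrowly distributed. The median was 40 nt (quartiles 37 and 44, range 24 to 118), against 44 nt (33 and 54) in 3' UTRs and 41 nt (39 and 43) in intergenic clusters. The regions were not matched for reads per cluster. Among intronic clusters with p under 0.01 the median was 47 nt. A width of 38 to 44 nt, a range chosen after the distribution was seen, was measured in 163 of 316 intronic clusters (51.6%, 45.9 to 57.2). It was measured in 741 of 3806 clusters in 3' UTRs (19.5%, 18.2 to 20.8), in 301 of 445 intergenic clusters (67.6%, 63.1 to 71.97) and in 147 of 176 antisense clusters (83.5%, 77.2 to 88.7). Only 10 intronic clusters were wider than 60 nt, Pkd1 (118 nt), Tob1 (76 nt), Sox2 (72 nt) and Sall1 (69 nt) among them.

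**Figure D2:**
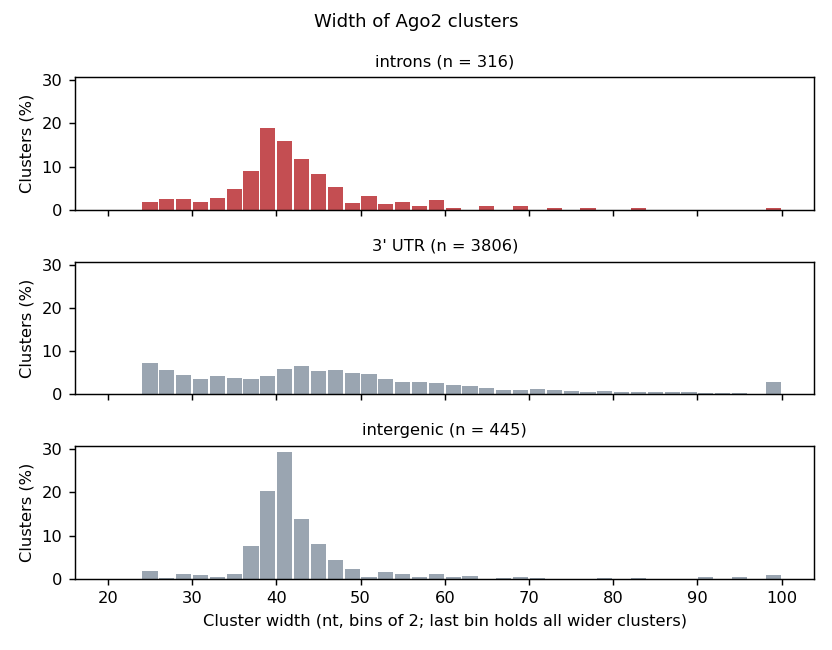
Distribution of cluster width (nt, horizontal axis, bins of 2 nt, the last bin holding all wider clusters) as a share of the clusters of a region (%, vertical axis), for introns, 3' UTRs and intergenic clusters. Introns and intergenic clusters have a narrow peak near 40 nt (51.6% and 67.6% at 38 to 44 nt), while 3' UTR clusters are spread (19.5%).

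The crosslink positions were also concentrated. In iCLIP the end of the copied fragment marks the base where the protein was crosslinked, and the list gives the position with most such events, or several where they tie, for 260 intronic clusters (82.3%). Over all clusters, the position with most events held a median of 37.5% of an intronic cluster's reads (quartiles 23.0 and 42.9). It was 23.5% in 3' UTRs and 40% in intergenic clusters. These medians include clusters without a listed position, which in introns enter with 1 event. A position was listed for 70.9% of 3' UTR and 92.8% of intergenic clusters. Few reads set this share, but the difference was present at both ends of the range of reads. The medians were 40% in introns and 20% in 3' UTRs for clusters of 5 or 6 reads, and 30% and 21.1% for those of at least 10. The 20% equals 1 event in 5 reads, so these medians do not separate having a listed position from how concentrated it was. At least 50% of the reads lay at 1 position in 70 intronic clusters (22.2%, 17.7 to 27.1), against 5.12% (4.44 to 5.87) in 3' UTRs and 24.3% (20.4 to 28.5) in intergenic clusters. Where a position was listed, the first one lay 8 to 15 nt from the 5' edge of the cluster in 230 of 260 intronic clusters (88.5%, 83.9 to 92.1). It did in 57.9% (56.0 to 59.7) of 3' UTR clusters and in 88.6% (85.2 to 91.5) of intergenic ones. In width, crosslink share and crosslink position the intronic medians and shares stood nearer to those of intergenic than of 3' UTR clusters. No test of these differences was made.

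The intronic cluster with the most reads lay in Sall1 (mm9 chr8:91566300-91566368, minus strand), with 40 tagged reads against 0 untagged. This is 13.3-fold over a floor of 3 counts per cluster, a ratio that leaves out the counting error of the tagged reads and is no lower limit. The cluster had an exact binomial p of 9.09e-13, recomputed from the tagged and the implied untagged number. The site table listed its GTTTGAG as part of the 5' UTR of a Sall1 transcript, with 42 tagged reads at the site and a PhastCons conservation score of 1, so the same bases carry an intronic label in the cluster list and an exonic one in the site table. Its crosslink position, with 8 events, lay 17 nt upstream of the match. Distances from crosslink positions to matches may be off by 1 nt, since the list does not say whether its positions count from 0 or 1.

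Sertad2, which encodes a coregulator of transcription, had 27 tagged reads against 0 (9-fold over the floor) on chr11:20548200-20548267, 477 nt from the nearest listed exonic site of the gene. Rplp2-ps1, a ribosomal protein pseudogene, had 22 against 0 (7.33-fold over the floor) on chr12:76732013-76732070. Ryr1, the calcium release channel of skeletal muscle, had 18 against 0 (6-fold over the floor) on chr7:29856667-29856724, and was not listed in the expression values. Rptor, the subunit of mTORC1 that binds its substrates, had 17 against 0 (5.67-fold over the floor) on chr11:119531119-119531163, 66019 nt from the nearest listed exonic site.

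In other large clusters the untagged library also had reads. Hspg2, which encodes the basement membrane proteoglycan perlecan, had 27 tagged reads against 2 untagged (13.5-fold, exact 95% counting interval 3.39 to 117) on chr4:137094252-137094299. Pkd1, polycystin-1, had 23 against 1 (23-fold, 3.73 to 947) in the widest intronic cluster, on chr17:24731912-24732029, only 8 nt from a listed exonic site. Psd3, an exchange factor for ARF6, had 18 against 1 (18-fold, 2.84 to 750). The low untagged numbers leave these ratios very loosely bounded.

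In clusters with 4 or more untagged reads the ratios were lower. St8sia4 had 30 tagged reads against 7 untagged (4.29-fold, 1.84 to 11.6) on chr1:97550851-97550898, and Ccdc30, which encodes a coiled-coil protein, 22 against 4 (5.5-fold, 1.87 to 22.0). Nfib, a transcription factor, had 17 against 5 (3.4-fold, 1.20 to 11.8). Atg13, which encodes a component of the complex that starts autophagy, had 16 against 5 (3.2-fold, 1.12 to 11.2), as had the cluster of Kti12 and Txndc12. Snx2, a sorting nexin, had 15 against 4 (3.75-fold, 1.19 to 15.5), and Gm6121 15 against 5 (3-fold, 1.04 to 10.6).

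**Figure D3:**
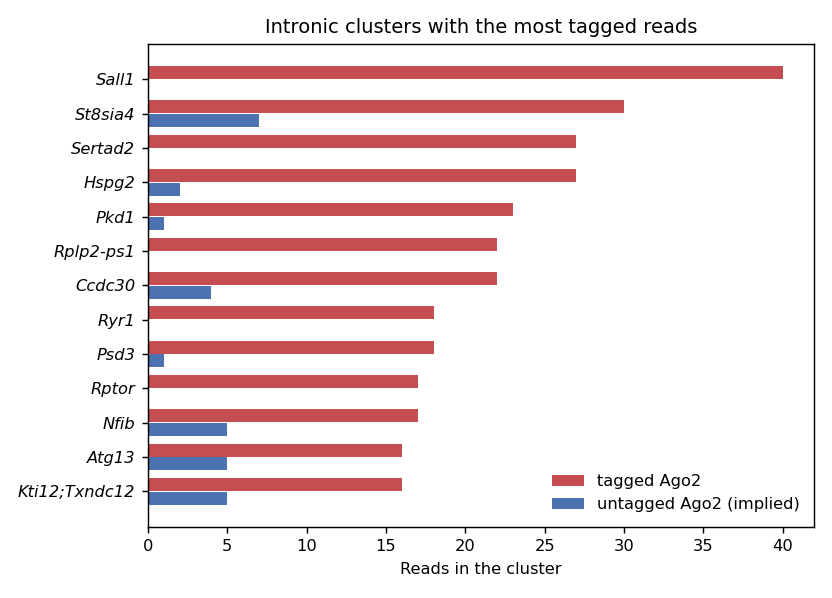
Reads (horizontal axis) in the 13 intronic clusters with the most tagged reads, 1 pair of bars per cluster: tagged Ago2 above, and below it the untagged number implied by the authors' enrichment. Sall1 has 40 against 0, while St8sia4, Nfib, Atg13 and the Kti12 and Txndc12 cluster have 5 to 7 untagged reads.

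The 316 clusters carried 281 gene names, 280 of which matched RefSeq. For 259 genes there was 1 intronic cluster, and 22 genes had several, 57 clusters in all. Among clusters of at least 7 reads, 23 of 28 in genes with several intronic clusters had no untagged read (82.1%, 63.1 to 93.9), against 57 of 112 in genes with 1 (50.9%, 41.3 to 60.5). A width of 38 to 44 nt was found in 8 of 57 (14.0%, 6.26 to 25.8) against 155 of 259 (59.8%, 53.6 to 65.9). At least 50% of the reads lay at 1 crosslink position in 4 of 57 (7.02%, 1.95 to 17.0) against 66 of 259 (25.5%, 20.3 to 31.2). The intervals of the genes with several clusters include the shares of 3' UTR clusters (81.3%, 19.5% and 5.12%), and those of the genes with 1 do not. In other measures this was not so. The crosslink position lay 8 to 15 nt from the 5' edge in 28 of 36 clusters of genes with several (77.8%, 60.8 to 89.9) and in 202 of 224 of genes with 1 (90.2%, 85.5 to 93.7), and neither interval includes the 57.9% of 3' UTR clusters. Clusters of 5 reads made up 40.4% (27.6 to 54.2) and 38.2% (32.3 to 44.4), both above the 25.5% in 3' UTRs. No test of the difference was made. In total these 57 clusters held 416 tagged and 8 untagged reads, and the 259 others 1951 and 105. Neighbouring clusters can overlap and may then share reads: 35 intronic clusters fell into 15 loci when clusters within 50 nt were merged, which left 296 loci. Genes with 1 intronic cluster cannot hold overlapping intronic clusters of their own, and the intervals count overlapping clusters as independent. The part of this in the differences between the groups was not tested.

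Elk4, an ETS transcription factor that acts with serum response factor, had the most intronic clusters: 6, with 45 tagged reads against 0 untagged, within 2550 nt (chr1:133924004-133926553). It also had 4 clusters annotated to its 3' UTR, with 29 against 0. Along the transcript strand, 2 of those 3' UTR clusters lay before all 6 intronic ones and 2 after them, so the intronic clusters stood between stretches that the authors annotated as 3' UTR. Elk4 was expressed at 4.63 FPKM, below the median of genes with an intronic cluster.

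Tob1, an antiproliferative protein that brings the CCR4-NOT deadenylase to messages, had 3 intronic clusters within 214 nt, with 31 tagged reads against 1 untagged. They followed 4 clusters of the 5' UTR (35 against 2) and preceded 4 of the 3' UTR (52 against 1). Ankrd52 encodes a subunit of the PP6 phosphatase, which in human cells is known to remove phosphate from Argonaute. It had 3 intronic clusters of 5 tagged reads each against 0, all of them downstream of its 11 clusters in the 3' UTR, which had 106 against 0. In Nupl1, a nucleoporin, 4 intronic clusters held 36 reads against 0 within 1448 nt, and these were the only clusters the list gave for the gene.

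The rest of the 10 genes with the most intronic clusters had 2 to 4 each. Prdm2, a zinc finger protein of the histone methyltransferase family, had 4 overlapping clusters within 58 nt (20 against 0) and 1 in its 3' UTR (6 against 0). Thra, the thyroid hormone receptor alpha, had 3 (28 against 0), Csnk2a2, a catalytic subunit of casein kinase 2, 3 (26 against 1), and the zinc finger gene Zfp219 3 (18 against 0). Zfp532 had 2 (20 against 1) and Ccdc30 2 (29 against 4), the sole gene of these 10 with more than 1 untagged read. The map of clusters also shows Fxr1, an RNA-binding protein of the fragile X family, and Polk, a DNA polymerase, which were added after their values were seen. In Fxr1 2 intronic clusters (10 against 0) and in Polk 2 (11 against 0) lay between a coding cluster and the clusters of the 3' UTR.

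**Figure D4:**
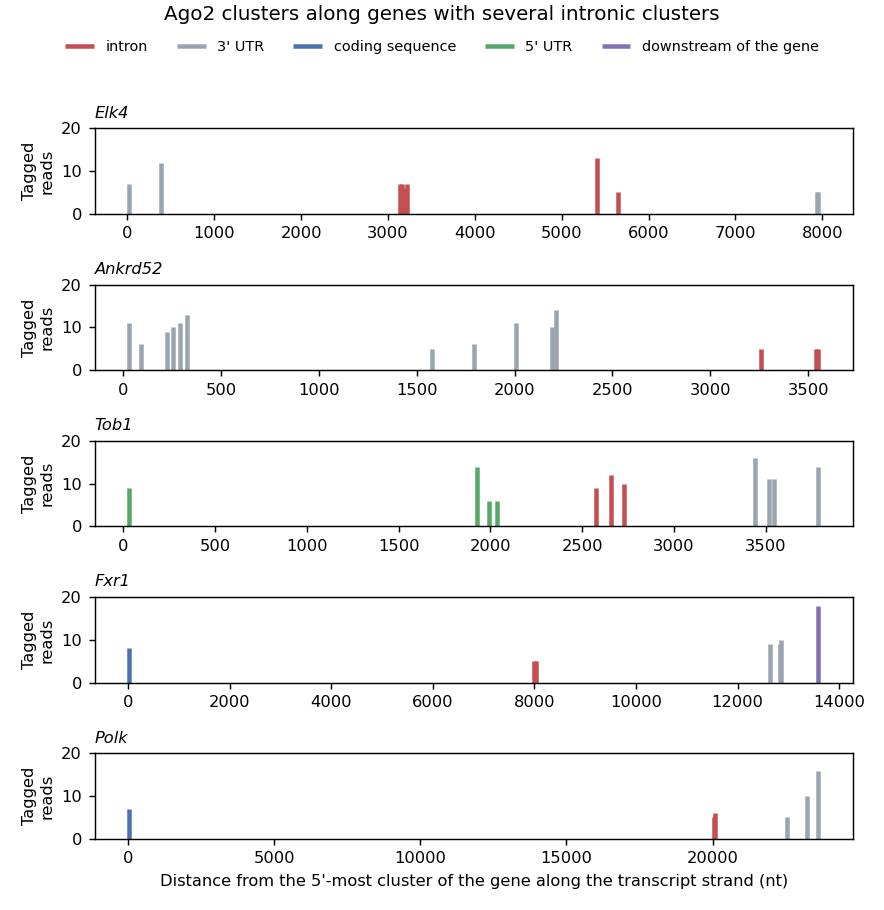
Clusters of 5 genes with several intronic clusters, as lines at the centre of each cluster along the transcript strand (nt from the 5' edge of the first cluster, horizontal axis) with the tagged reads as height (vertical axis); colours give the authors' region. Intronic clusters lie between 3' UTR clusters in Elk4, beyond them in Ankrd52 and upstream of them in Tob1, Fxr1 and Polk.

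Across all introns, most clusters lay far from the exonic sites of their own gene in the site table. The distance to the nearest such site had a median of 2353.5 nt (quartiles 441.5 and 11042.8, n = 256 clusters), with 72 clusters within 500 nt and 26 within 100 nt. Of these 256, 214 lay inside the span of the gene's listed exonic sites and 42 outside it, and the other 60 had no entry. Inside the span, the median position was 58.6% of the way from the 5' end, with 51 clusters in the first 20% and 57 in the last 20%. In the 75 clusters whose gene also had a 3' UTR cluster, 63 lay upstream of those clusters, 8 between and 4 downstream. By strand, 149 were on the plus and 167 on the minus strand, and the clusters lay on 20 chromosomes.

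Of the 281 genes, 59 also had a 3' UTR cluster (21.0%, 16.4 to 26.2), 16 a coding cluster, and 206 had intronic clusters alone. Over genes of the site table, which lists transcripts of at least 0.1 FPKM, 60 of 224 with an intronic cluster had a 3' UTR cluster (26.8%, 21.1 to 33.1), where 11.6% of all 15271 genes did. A width of 38 to 44 nt was found in 22 of 75 clusters of genes that also had a 3' UTR cluster (29.3%, 19.4 to 41.0), against 141 of 241 in the other genes (58.5%, 52.0 to 64.8). The share with no untagged read among clusters of at least 7 reads was 57.1% in both.

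Genes with an intronic cluster were moderately expressed. Their median was 8.24 FPKM (quartiles 2.07 and 20.02, n = 224 genes), against 14.0 FPKM (5.64 and 33.1, n = 1771) for genes with a 3' UTR cluster and 3.31 FPKM (0.572 and 13.6, n = 12722) for genes with no cluster. A gene's value is the highest listed for its transcripts. Genes with intronic clusters alone had a median of 6.07 FPKM (n = 153). In the site table, 222 of the 281 gene names were found (79.0%, 73.8 to 83.6), against 1769 of 1807 genes with a 3' UTR cluster (97.9%, 97.1 to 98.5).

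The share of widths of 38 to 44 nt was highest in genes without a listed level. Of 60 such clusters 47 were 38 to 44 nt wide (78.3%, 65.8 to 87.9), against 24 of 66 (36.4%, 24.9 to 49.1) in genes above 20 FPKM. Among clusters of at least 7 reads, 10 of 25 had no untagged read (40%, 21.1 to 61.3), against 23 of 30 (76.7%, 57.7 to 90.1) above 20 FPKM. Classes between these, from 0.1 to 20 FPKM, gave 45.9% to 51.4% for the width and 51.3% to 60% for the untagged reads, without a steady order.

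The site table covered hardly any intron, so seed matches in these clusters could be looked up for few of them. Of 316 intronic clusters 4 overlapped any entry on their strand (1.27%, 0.346 to 3.21), against 80.9% of 3' UTR and 53.7% of coding clusters. Over a listed 7mer or 8mer, by at least 1 nt, lay 3 of 316 (0.949%), the clusters whose letters are printed above, against 46.3% of 3' UTR and 30.5% of coding clusters. In Map3k12 (chr15:102334727-102334770, 6 tagged reads against 0) the entry was annotated as coding sequence with a PhastCons score of 0.999 and 6 reads, and the crosslink position lay 26 nt upstream of the match. In Zzef1 (chr11:72647456-72647500, 8 against 0) the entries belonged to the pseudogene Gm6733 with a PhastCons score of 0 and 8 reads, and the crosslink position fell 0 and 1 nt upstream of the matches. The fourth, in Eif1, a factor in start codon selection, had 12 reads against 0 and a 6mer in coding sequence with 2 reads. All 4 thus carried an exonic or pseudogene label in the site table.

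Some introns give rise to microRNAs or small nucleolar RNAs, and genes that hold such RNAs were looked up in RefSeq. A microRNA gene lay within 30 of 281 genes with an intronic cluster (10.7%, 7.32 to 14.9), against 106 of 1802 with a 3' UTR cluster (5.88%, 4.84 to 7.07) and 560 of 14075 genes of the site table (3.98%, 3.66 to 4.31). On the strand of the host gene it was 21 (7.47%), against 72 (3.996%) and 381 (2.71%). A small nucleolar RNA gene lay within 14 (4.98%, 2.75 to 8.22), against 49 (2.72%) and 280 (1.99%). Genes with an intronic cluster were also longer, with a median of 64.3 kb against 30.2 kb and 18.7 kb, and the part of length in these shares was not tested. Whether the clusters lie on the small RNAs themselves was not examined, because the annotation is on another build than the clusters.

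In the lists of genes chosen for this tissue, single members had an intronic cluster, where 1.47% of the genes of the site table had one. Among known microRNA host genes it was 3 of 35 (8.57%, 1.804 to 23.1): Slit3, a secreted guidance protein whose gene holds Mir218-2, with 7 tagged reads against 0, Pank2, a pantothenate kinase whose gene holds Mir103-2, with 6 against 0, and Gpc1, a glypican, with 5 against 0. Among known hosts of small nucleolar RNAs it was 1 of 20, Nop56, a core protein of the box C/D particle, with 6 against 0. Among splicing regulators it was 1 of 41, the SR protein gene Srsf10, with 12 against 1. A 3' UTR cluster was present in 17 of the 41, and in 11.6% of the genes of the site table.

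Among pluripotency factors 2 of 30 had an intronic cluster and 14 a 3' UTR cluster, against 1.47% and 11.6% of the genes of the site table. Besides Sall1 this was Sox2, a core factor of the stem cell state, with 10 tagged reads against 0 on chr3:34549903-34549974 and 2 clusters in its 3' UTR (18 against 0). Sox2 is known as a gene without introns, and its cluster lay 355 nt from a listed exonic site of the gene. Of 24 genes of Polycomb and DNA methylation 2 had one: Mtf2, an accessory subunit of Polycomb repressive complex 2, with 6 against 0 beside 48 against 0 in 7 clusters of its 3' UTR, and Cbx7, a reader of methylated histone H3, with 5 against 0 beside 22 against 0 in 4. No gene of the microRNA pathway and message decay had one (0 of 29, exact interval up to 11.9%, which includes the 1.47% of all genes). A 3' UTR cluster was present in 14 of the 29, against 11.6% of all genes. Median levels were 87.6 FPKM for splicing regulators, 64.7 FPKM for pluripotency factors and 16.1 FPKM for the microRNA pathway. The part of level in these counts was not tested. With 20 to 41 members per list, these intervals are wide. Of the markers of other cell types, 1 had an intronic cluster: Mtap2, which encodes a microtubule protein of neurons, with 7 tagged reads against 0 and a level of 0.498 FPKM.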

How the data were processed

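The authors' cluster list gives each cluster's peak height, a signal in whole tagged reads that is not normalized per the file headers, and a text cell with its reads, its log2 ratio to the untagged library and a binomial p. Bowtie, TopHat, mm9 and NCBIM37 are named, without role or version, per the submitters' processing notes. For the cluster caller, the removal of duplicate reads and the depth of the untagged library, no source used here gives a statement. The untagged number was taken as the whole number that returned the authors' log2 within 0.005, as tagged plus 1 over untagged plus 1, and their p within 0.0001. The untagged number was never 3, so it may be scaled. The binomial p-values printed and counted here were recomputed from these numbers.

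The deposited site table holds rpm, reads scaled to library size by the authors; 100% of 1641948 entries were whole multiples of 1.27 rpm within 0.001, which gives 789000 tagged reads. No count test was run, since there is 1 library per group. FPKM were deposited by the authors for transcripts of at least 0.1 FPKM, from a source not given here, and PhastCons is a deposited score from 0 to 1.

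Shares have exact (Clopper-Pearson) 95% intervals, and overlaps of 1 nt or more on the same strand were counted. Ratios against 1 to 7 untagged reads have exact counting intervals. Coordinates are 1-based on mm9. Regions other than introns also exclude splice junction clusters. RefSeq tables (GRCm38.p6) gave the spelling of names, which the list writes in capitals, gene lengths, microRNA sequences and which genes lie within others. Genes named are the 15 intronic clusters with the most tagged reads, the 10 genes with the most intronic clusters, the 5 clusters with the highest untagged number (with ties), those over a listed 7mer or 8mer and up to 4 members of each of 6 gene lists, except 1 gene that is not reported here. Members and lists were chosen with earlier results of these data known. Functions for overlap, merging and intervals were tested on simulated data. Python 3.11.15, pandas 2.3.3, numpy 2.4.6, scipy 1.17.1 and matplotlib 3.10.9 were used.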

Additional observations from a re-analysis of the deposited data

How the results depend on the processing

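Requiring the authors' p under 0.01 lowered the intronic share of clusters to 3.08% from 5.09%, left 82 of 281 genes and 4 of 9 list genes, raised the median reads to 9 and the median width to 47 nt, and put the share of genes with a 3' UTR cluster at 13.4%, against 26.8% over genes of the site table alone. The intronic share was 3.98% by tagged reads and 6.35% with clusters within 50 nt merged. The share with no untagged read was 57.1% at 7 or more tagged reads and 45.5% at 10 or more. The fall to 57.1% from 81.0% is by construction, since clusters of 5 or 6 reads enter only against 0. The further fall at 10 or more may also depend in part on the authors' threshold, which limits the untagged number at each depth. Benjamini-Hochberg adjustment kept 100% of intronic clusters, because the list holds only p under 0.05, and p under 0.001 kept 10.4%. Seed matches fell to 1 cluster with 8mers alone and were 0 on the opposite strand. Medians of expression and of the crosslink share, and the other settings, 17 in all, stayed within the spread or 1.5 times; the median FPKM over entries and the crosslink share in clusters of 5 or 6 reads were chosen after seeing the data. No replicate could be left out with 1 library per group. No paired analysis was possible because each group has 1 library. Depth is a limit, as 122 clusters rest on 5 reads, and the scale of the untagged number is unknown.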
